A study of Homo sapiens with 32 samples.

Results

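The SOX genes described here are SOX2, SOX3, SOX4, SOX9, SOX11, SOX12 and SOX13, 7 genes chosen by name and read from the 60662 gene identifiers of each count file. RNA sequencing of poly(A) RNA was carried out on 32 libraries of HEK293T, a human embryonic kidney line, in 3 experiments. In the knockdown experiment, cells received 20 µM STM2457, an inhibitor of the m6A methyltransferase METTL3, in 0.2% DMSO, or 0.2% DMSO alone, for 6 h, with or without an siRNA against YTHDF2 at 20 nM transfected 42 h before the inhibitor (4 groups of 3 libraries). In the 9 h experiment, STM2457 or DMSO was given at the same concentrations for 9 h (2 groups of 4 libraries). In the emetine experiment, STM2457 or DMSO was given for 6 h and either 1.8 µM emetine, which stops translation elongation, or DMSO was present for the last 2 h (4 groups of 3 libraries). All groups therefore carry DMSO, and the labels give every cell as wild type. The labels of the libraries without YTHDF2 siRNA name no siRNA and do not say whether these cells received the non-targeting siRNA that the protocol mentions, so that an effect of YTHDF2 siRNA and one of transfection cannot be told apart. The labels also do not say whether replicates are separate cultures, so p-values measure the spread between these libraries.

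SOX proteins bind DNA through an HMG box, which sits in the minor groove and bends the helix, and most act together with a partner factor bound beside them. SOX2 and SOX3 belong to the SOXB1 group, which maintains neural progenitors, and SOX2 is also a factor of pluripotent cells. SOX4, SOX11 and SOX12 form the SOXC group, activators in progenitors of many tissues. SOX9 is a SOXE protein known for cartilage and testis, and SOX13 is a SOXD protein, which lacks a defined activation domain. METTL3 writes m6A within a short consensus in mRNA, often near stop codons, and YTHDF2 is a reader protein that brings methylated mRNA to deadenylation.

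Total gene counts ran from 37694945 to 42303951 per library in the knockdown experiment, from 22510323 to 34677704 in the 9 h experiment and from 21781514 to 28053353 in the emetine experiment. No pair of libraries held identical counts. All 8 HEK293T markers reached 1 CPM (a count scaled to library size) in some library, with summed levels of 930 to 1515 CPM. None of 4 hepatocyte genes did, while 3 of 5 fibroblast genes (summed level 18.2 to 29.4 CPM) and 2 of 4 keratin epithelium genes (4.19 to 10.39 CPM) did. Of 5 blood genes 1 reached that level (summed level of the list 1.44 to 2.82 CPM). The lowest HEK293T marker, NEFH, had group means of only 0.435 to 0.950 CPM. POU5F1 and NANOG, which mark pluripotent cells, had at most 2 and 0 counts per library, while LIN28B and PAX6 had group means of 53.5 to 178 CPM and 10.1 to 40.6 CPM. YTHDF2 mRNA averaged 178 ± 3.91 CPM (SD, n = 3) in DMSO and 43.3 ± 1.14 CPM with its siRNA. It averaged 618 ± 36.8 CPM after STM2457 for 6 h without siRNA and 76.9 ± 3.28 CPM with it. METTL3 mRNA averaged 68.9 ± 0.292 CPM in DMSO and 75.6 ± 2.3 CPM after STM2457 in the same experiment, and since STM2457 acts on the protein this does not check the inhibitor.

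On GRCh38, in the GENCODE 29 annotation, SOX4 lies on chromosome 6 from 21592768 to 21598619, SOX12 on chromosome 20 from 325595 to 330224, SOX11 on chromosome 2 from 5692667 to 5701385, SOX2 on chromosome 3 from 181711924 to 181714436, SOX9 on chromosome 17 from 72121020 to 72126420 and SOX13 on chromosome 1 from 204073115 to 204127743, all on the plus strand. SOX3 lies on the minus strand of the X chromosome from 140502985 to 140505116. SOX2, SOX3, SOX4, SOX11 and SOX12 have 1 exon, as do 301 (2.32%) of the 12948 coding genes tested in all 3 experiments. SOX9 has 3 exons and SOX13 has 14. The third codon positions of the 7 coding parts were 77.7% to 92.8% G or C, against a median of 59.3% over those coding genes.

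The m6A consensus was searched on the sense strand as NNACN with A, G or T first, A or G second and A, C or T last, overlapping matches included. The last 90 coding bases, stop codon included, are shown for the SOXC genes and for SOX2 and SOX9. The 3 SOXC ends are alike in sequence while their mRNAs differed in level, and those of SOX4 and SOX12 also in response. SOX2 and SOX9 are shown because those mRNAs moved in parallel. The sequences are given 5′ to 3′ from the GENCODE 29 transcripts with the consensus matches in capitals.
SOX4: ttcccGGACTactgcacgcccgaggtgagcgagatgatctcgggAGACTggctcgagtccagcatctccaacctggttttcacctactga
SOX12: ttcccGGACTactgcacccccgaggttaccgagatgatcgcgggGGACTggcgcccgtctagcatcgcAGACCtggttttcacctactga
SOX11: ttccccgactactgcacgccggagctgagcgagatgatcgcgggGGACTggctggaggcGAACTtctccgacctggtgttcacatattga
SOX2: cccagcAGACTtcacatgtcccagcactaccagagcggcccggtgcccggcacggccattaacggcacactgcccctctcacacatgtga
SOX9: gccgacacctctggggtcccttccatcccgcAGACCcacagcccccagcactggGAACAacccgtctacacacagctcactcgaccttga

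Aligned without gaps, the SOX4 and SOX12 ends shared 78 of 90 bases, SOX4 and SOX11 76, and SOX11 and SOX12 71. The window held 2 matches in SOX4, SOX11 and SOX9, 3 in SOX12 and 1 in SOX2. Of 12947 coding genes with a window of that length, 84.7% held at least 1 match, 54.9% at least 2 and 27.6% at least 3. Over the whole coding part, the density was 11.9 matches per kb in SOX4, 12.7 in SOX12, 9.80 in SOX11, 15.7 in SOX2, 12.7 in SOX3, 14.4 in SOX9 and 16.6 in SOX13. The median over coding genes was 19.8 per kb, and 6 of the 7 SOX genes, all but SOX13, lay under the lower quartile. When only A or G was allowed first, SOX2 (14.7 per kb), SOX12 (12.7) and SOX13 (12.3) lay above the lower quartile of 11.9. SOX3, SOX4, SOX9 and SOX11 lay under it. In the part after the stop codon, the densities of SOX2 (21.4) and SOX9 (19.7) were above the median of 18.5. SOX4 (18.4) and SOX11 (18.3) were near it, SOX12 stood at 16.4, and SOX13 (13.1) and SOX3 (10.9) were under the lower quartile of 15.3. A match is a sequence and was not measured for methylation here.

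SOX12 and SOX4 were the most abundant members in untreated cells. Levels between genes are given as CPM per kb of annotated exon. In the 3 DMSO groups without siRNA or emetine, SOX12 stood at 16.2, 21.8 and 21.7 CPM per kb (knockdown, 9 h and emetine experiment) and SOX4 at 12.1, 18.3 and 14.7. SOX2, SOX9 and SOX13 were lower, SOX2 and SOX9 by several-fold. SOX2 stood at 3.84, 3.95 and 3.09 CPM per kb, SOX9 at 2.94, 4.34 and 4.27, and SOX13 at 3.15, 2.98 and 3.02. The order of these last 3 differed between experiments. SOX13 came to 6.51, 6.17 and 6.25 CPM per kb when the length of its longest coding transcript was used in place of all annotated exons. Its distance from SOX4 and SOX12 thus depends on the length used. SOX3 was near the limit of measurement, at 0.279, 0.135 and 0.376 CPM per kb, or 5 to 35 counts per library.

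SOX11, the SOXC gene best known from embryonic neurons, was too low to measure. It had 0 counts in 29 of 32 libraries and 3 counts in total, 1 in a library with STM2457 and YTHDF2 siRNA and 1 in each of 2 libraries with emetine in DMSO. A count of 0 allows up to 3 counts per library, which corresponds to at most 0.0709 to 0.138 CPM at these depths, for counting error only. SOX11 was removed by the filter on low counts in all 3 experiments, so 6 of the 7 genes were tested in each. An overlapping transcript, AC108025.2, shares 74 exonic bases with SOX11. The antisense transcript AL512380.2 shares 168 exonic bases with SOX4 and had 0 to 4 counts per library, and SOX2-OT, in whose body SOX2 lies without shared exonic bases, had 0 to 11.

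**Figure D1:**
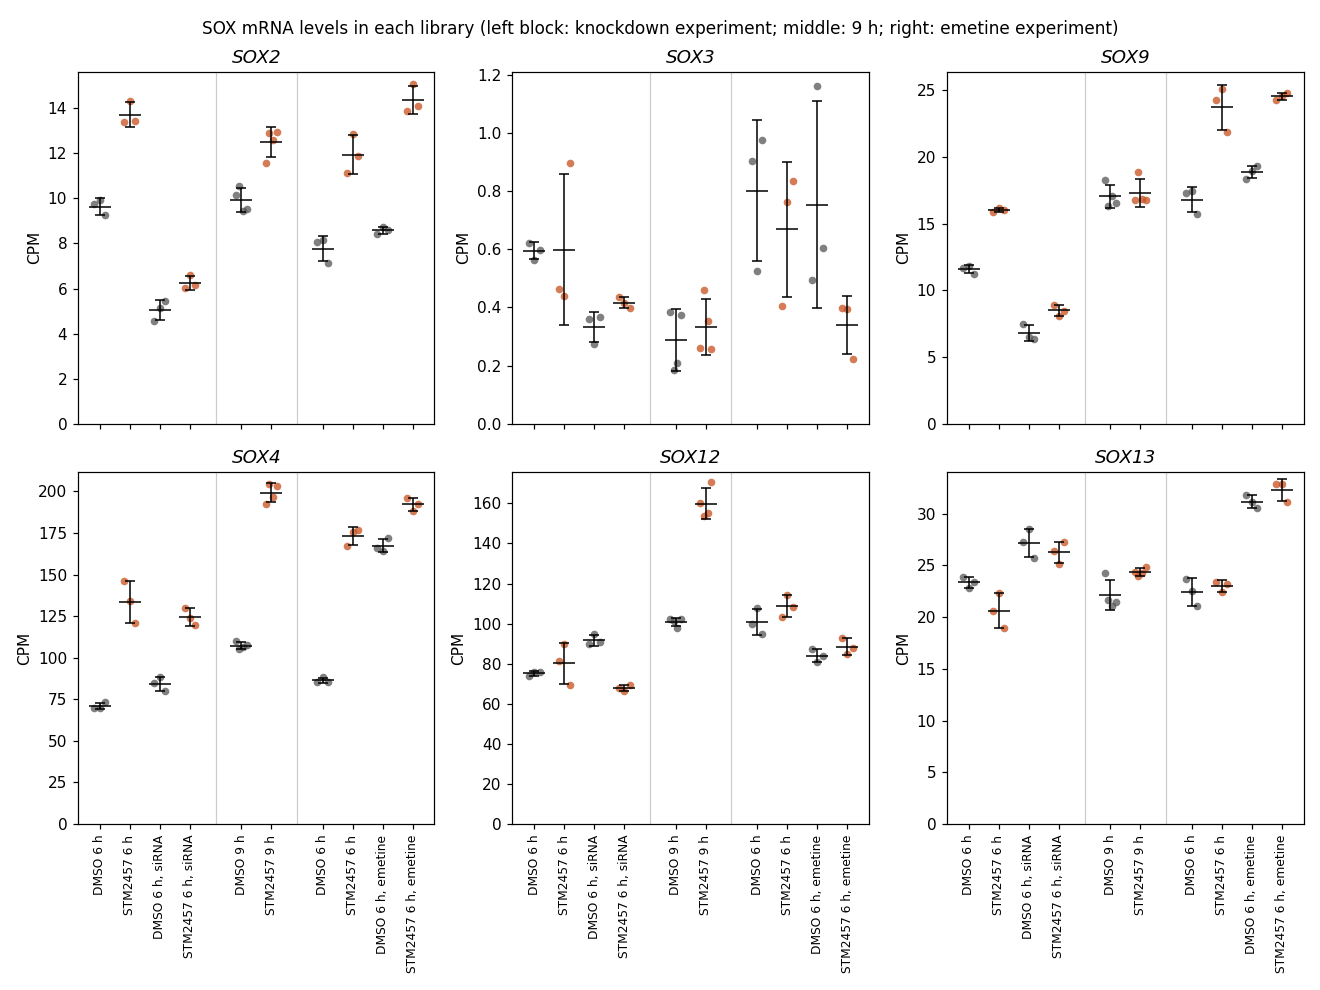
Level of 6 SOX mRNAs in CPM (linear axis from 0) in each of the 32 libraries, as points, with the mean and SD of each group as bars. DMSO libraries are grey and STM2457 libraries orange. SOX4 was higher in all STM2457 groups than in their own DMSO groups, and SOX2 and SOX9 were lowest in the siRNA groups.

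The first question was what inhibition of METTL3 does to these mRNAs. After 6 h of STM2457 the mRNAs of SOX4, SOX2 and SOX9 were higher in both 6 h experiments, SOX4 by 1.88-fold and 2.01-fold, SOX2 by 1.42-fold and 1.53-fold and SOX9 by 1.38-fold and 1.41-fold. At 6 h the log2 changes of SOX12 (0.09 and 0.11) and SOX13 (-0.18 and 0.04) were small with TMM scaling, which assumes that most genes do not change. After 9 h, SOX4 and SOX2 were again higher, SOX12 was 1.58-fold higher, and SOX9 was at the level of its DMSO libraries. All these values are with TMM scaling. With libraries scaled to ribosomal protein genes or spike-in RNA, the 6 h log2 changes in the knockdown experiment were smaller for SOX2 (0.25 and 0.15) and SOX9 (0.21 and 0.11). Neither was then called (edgeR adjusted p under 0.05), while both remained called in the emetine experiment. At 9 h SOX9 came to 0.20 with ribosomal protein scaling and was called.

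SOX4 stood at 69.9, 70.0 and 73.1 CPM in the DMSO libraries of the knockdown experiment and at 146, 134 and 121 CPM in the STM2457 libraries. The groups did not overlap, and the log2 change was 0.91 (SE 0.06, adjusted p = 1.15e-09, edgeR's quasi-likelihood test, adjusted by Benjamini and Hochberg's method across the genes tested, as for every adjusted p below). In the emetine experiment SOX4 stood at 85.3, 88.2 and 85.4 CPM in DMSO and at 167, 176 and 177 CPM in STM2457. Every STM2457 library was far above every DMSO library, with a log2 change of 1.01 (SE 0.04, edgeR adjusted p = 8.69e-22). At 9 h it stood at 110, 105, 106 and 107 CPM in DMSO and at 192, 204, 197 and 203 CPM in STM2457. The change of 0.89 (SE 0.03, edgeR adjusted p = 8.29e-18) was again larger than the spread within either group. These changes lay at the 97.4th, 98.1st and 96.4th percentile of all genes tested in each comparison.

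SOX12, the other measured SOXC gene, stood at 73.8, 75.8 and 75.9 CPM in DMSO and at 81.5, 89.8 and 69.2 CPM after STM2457 for 6 h in the knockdown experiment. The third STM2457 library was below every DMSO library and the other 2 were above, and the log2 change was 0.09 (SE 0.07, edgeR adjusted p = 0.28). Without that library it was 0.18 (edgeR adjusted p = 0.00587), and without the second STM2457 library -0.011. Its levels in the emetine experiment were 99.6, 108 and 94.7 CPM in DMSO and 103, 114 and 108 CPM in STM2457. Those groups overlapped, and the change of 0.11 (SE 0.04, edgeR adjusted p = 0.0452) lost its call under DESeq2 (adjusted p = 0.0967) and without any of 4 of the 6 libraries. It was 0.071 without the first and 0.045 without the third DMSO library, and 0.045 without the second and 0.083 without the third STM2457 library. With libraries scaled to ribosomal protein genes it was -0.064 and to spike-in RNA -0.026, neither called. At 9 h the picture was different, with 102, 102, 98.0 and 102 CPM in DMSO and 160, 154, 155 and 170 CPM in STM2457. All 4 STM2457 libraries were above all 4 DMSO libraries, with a change of 0.66 (SE 0.03, edgeR adjusted p = 1.4e-14).

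SOX2 stood at 9.73, 9.94 and 9.24 CPM in DMSO and at 13.4, 14.3 and 13.4 CPM after STM2457 for 6 h in the knockdown experiment. The groups did not overlap (log2 change 0.51, SE 0.07, edgeR adjusted p = 1.59e-05). In the emetine experiment the DMSO libraries gave 8.06, 8.15 and 7.12 CPM and the STM2457 libraries 11.1, 12.8 and 11.9 CPM, a change of 0.62 (SE 0.08, edgeR adjusted p = 2.17e-07). At 9 h, DMSO gave 10.1, 10.6, 9.43 and 9.55 CPM and STM2457 gave 11.6, 12.9, 12.6 and 12.95 CPM. The groups were again apart, with a change of 0.34 (SE 0.07, edgeR adjusted p = 8.85e-05).

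SOX9 stood at 11.7, 11.8 and 11.2 CPM in DMSO and at 15.9, 16.2 and 16.05 CPM after STM2457 in the knockdown experiment. The 3 STM2457 libraries lay close together and above the DMSO libraries (log2 change 0.47, SE 0.07, edgeR adjusted p = 1.78e-05). Its levels in the emetine experiment went from 17.3, 17.4 and 15.7 CPM to 24.2, 25.1 and 21.9 CPM, a change of 0.49 (SE 0.06, edgeR adjusted p = 7.64e-08). At 9 h it stood at 18.3, 16.3, 17.1 and 16.6 CPM in DMSO and at 16.8, 18.9, 16.8 and 16.8 CPM in STM2457. The groups overlapped, with a change of 0.03 (interval from -0.09 to 0.14, edgeR adjusted p = 0.697), and without the second STM2457 library the value was -0.023.

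SOX13 stood at 23.8, 22.8 and 23.4 CPM in DMSO and at 20.6, 22.3 and 18.9 CPM in STM2457 in the knockdown experiment. It was lower with a log2 change of -0.18 (SE 0.07, edgeR adjusted p = 0.0316), and by more with ribosomal protein scaling (-0.43, edgeR adjusted p = 0.0080) and spike-in scaling (-0.53, edgeR adjusted p = 0.0327). The call with TMM scaling was lost without the first DMSO library (adjusted p = 0.0654), the third DMSO library (0.0528) or the third STM2457 library (0.0818), each by edgeR. Its change in the emetine experiment was 0.04 (edgeR adjusted p = 0.65). At 9 h, DMSO gave 24.2, 21.7, 21.1 and 21.5 CPM and STM2457 gave 24.4, 24.0, 24.2 and 24.9 CPM. The first DMSO library lay among the STM2457 libraries, and the change of 0.14 (SE 0.05, edgeR adjusted p = 0.0207) lost its call under DESeq2 (adjusted p = 0.0563) and without DMSO replicate 2, 3 or 4 (edgeR adjusted p = 0.0586, 0.0752 and 0.0579). It was 0.31 with ribosomal protein scaling (edgeR adjusted p = 2.43e-05). SOX3 changed by 0.01, -0.24 and 0.26 in the 3 comparisons, with intervals from -0.50 to 0.52, from -0.93 to 0.45 and from -0.40 to 0.92, and none passed the test.

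Of the 6 tested members, 3 were higher and 1 lower after 6 h in the knockdown experiment, where 45% of 16662 genes were called, 22.9% higher and 22.1% lower. In the emetine experiment 4 were higher and 0 lower, against 47.8% of 15817 genes called, 26% higher and 21.9% lower. At 9 h 4 were higher and 0 lower, against 64.7% of 15834 genes, 32.2% higher and 32.5% lower. The share called in either direction was 4 of 6 in each, at 9 h near the background. The even split of all genes holds for TMM scaling. With ribosomal protein scaling 1252 genes were called higher and 7363 lower in the knockdown experiment, 2200 and 6688 in the emetine experiment and 7513 and 2424 at 9 h. With spike-ins they were 398 and 5023 in the knockdown and 2092 and 4679 in the emetine experiment. The median log2 change of the 6 was 0.28, 0.30 and 0.30, beside -0.02, 0.00 and 0.00 for all genes tested.

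The effect at 9 h was compared with that at 6 h in the knockdown experiment, each against its own DMSO libraries. The time and the experiment cannot be told apart. Of 16720 genes, 37.1% differed, 13.8% with a larger value at 9 h and 23.3% with a smaller one. SOX12 had the larger change at 9 h, by 0.53 (SE 0.08, edgeR adjusted p = 1.07e-05), and SOX13 did by 0.28 (SE 0.08, edgeR adjusted p = 0.00693). SOX9 had the smaller change at 9 h, by -0.48 (SE 0.09, edgeR adjusted p = 0.000111). The differences for SOX2 (-0.21, edgeR adjusted p = 0.0861), SOX4 (-0.05, interval from -0.18 to 0.07) and SOX3 (0.21, interval from -0.73 to 1.15) did not pass the test. When libraries were scaled to ribosomal protein genes, the median of all genes in this comparison moved by 0.47, and 9973 genes had a larger and 97 a smaller value at 9 h. The SOX12 and SOX13 differences then became 0.99 and 0.75, both called, the SOX9 difference became -0.0099 and the SOX4 difference became 0.40 (edgeR adjusted p = 0.00753).

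**Figure D2:**
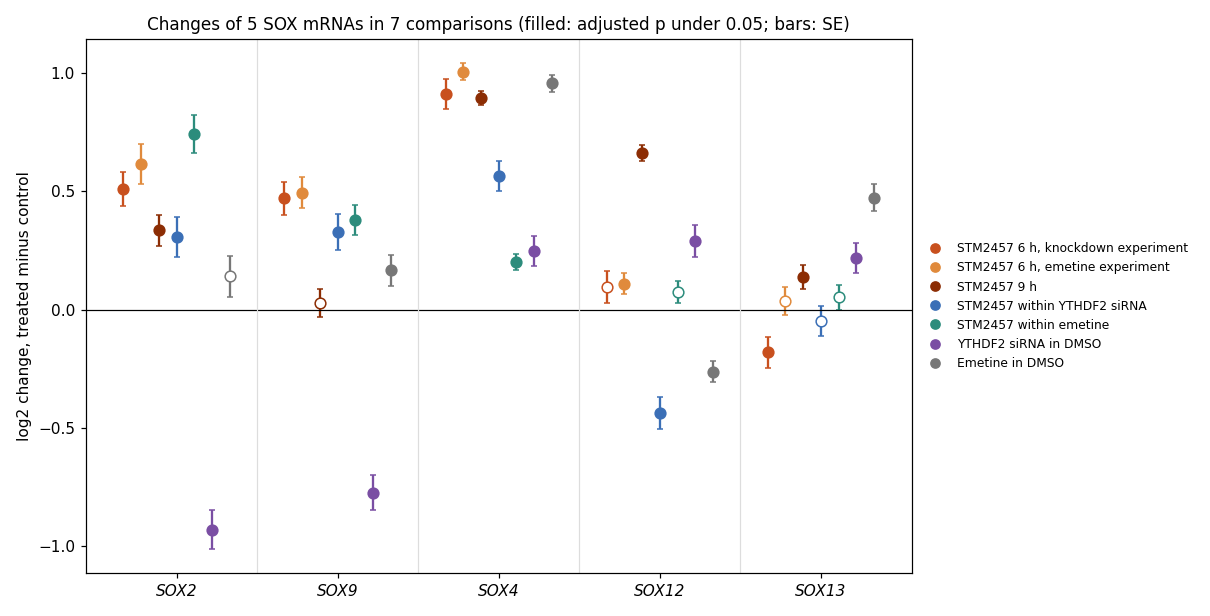
Log2 change of 5 SOX mRNAs (treated minus control, with its SE) in 7 comparisons from edgeR, filled where the adjusted p was under 0.05 and open elsewhere. SOX2 and SOX9 had changes of -0.93 and -0.77 with YTHDF2 siRNA and positive changes with STM2457 at 6 h, and SOX12 passed the test upward at 9 h and downward with STM2457 in siRNA cells.

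The knockdown experiment also asked what happens when the reader YTHDF2 is lowered. With YTHDF2 siRNA in DMSO, SOX2 fell to 0.525 and SOX9 to 0.585 of their levels without it, which is the direction opposite to that seen with STM2457. SOX4, SOX12 and SOX13 were higher by 1.16-fold to 1.22-fold. SOX3 was lower, at 12 to 14 counts per library.

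SOX2 stood at 4.57, 5.13 and 5.46 CPM with the siRNA, against the 9.24 to 9.94 CPM of the 3 libraries without it. The 2 groups were far apart, with a log2 change of -0.93 (SE 0.08, edgeR adjusted p = 1.33e-08). SOX9 stood at 7.47, 6.52 and 6.35 CPM with the siRNA, against 11.2 to 11.8 CPM without it, a change of -0.77 (SE 0.07, edgeR adjusted p = 4.53e-08). SOX3 stood at 0.362, 0.275 and 0.366 CPM with the siRNA, below all libraries without it (0.564 to 0.622 CPM). Its change of -0.83 (SE 0.29, edgeR adjusted p = 0.0179) did not pass under DESeq2 (adjusted p = 0.073), with spike-in scaling (edgeR adjusted p = 0.0757) or without the second siRNA library (-0.73, edgeR adjusted p = 0.0683).

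SOX4 stood at 84.6, 88.4 and 79.7 CPM with the siRNA, each above the DMSO libraries without it, a change of 0.25 (SE 0.06, edgeR adjusted p = 0.00235). SOX12 stood at 89.8, 94.8 and 90.7 CPM, also above them, a change of 0.29 (SE 0.07, edgeR adjusted p = 0.00113). SOX13 stood at 27.2, 28.5 and 25.8 CPM, a change of 0.22 (SE 0.06, edgeR adjusted p = 0.00599) that lost its call without the second DMSO library (0.17, edgeR adjusted p = 0.0542) or the second siRNA library (0.15, edgeR adjusted p = 0.0757). Of the 6 tested members, 3 were higher and 3 lower, where 62.4% of all genes tested were called, 33.1% higher and 29.3% lower. The calls of SOX4, SOX12 and SOX13 were lost with either of the other scalings, at unchanged size: with spike-ins the 3 changes were 0.27, 0.31 and 0.24 (edgeR adjusted p = 0.302, 0.227 and 0.388). The neural or pluripotent markers had a summed level of 174 to 181 CPM without and 71.3 to 75.8 CPM with the siRNA. That sum follows LIN28B and PAX6, which have the highest levels in the list and fell (-1.42 and -1.43), while NES (0.57) and TUBB3 (1.17) rose, and POU5F1, LIN28A, NANOG and DCX were at or near 0. Of the 8 HEK293T markers 1 was higher and 4 lower, and of 3 fibroblast genes tested 2 were lower. The part of these markers in the SOX2 and SOX9 result was not tested.

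STM2457 was also given to cells with the YTHDF2 siRNA. There SOX4, SOX2 and SOX9 were again higher with the inhibitor, by 1.48-fold, 1.24-fold and 1.25-fold, while SOX12 fell to 0.739 of its level. With ribosomal protein scaling and spike-ins the log2 changes of SOX2 (0.12 and 0.0034) and SOX9 (0.14 and 0.0055) were not called. That of SOX4 was not called with spike-ins (0.24). SOX4 stood at 130, 124 and 120 CPM, above the 79.7 to 88.4 CPM of the siRNA libraries in DMSO (log2 change 0.56, SE 0.06, edgeR adjusted p = 1.11e-06). SOX12 stood at 67.8, 66.5 and 69.1 CPM, below the 89.8 to 94.8 CPM in DMSO. Its change was -0.44 (SE 0.07, edgeR adjusted p = 5.93e-05), and it remained called with ribosomal protein scaling (-0.63) and spike-ins (-0.74).

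SOX2 stood at 6.02, 6.60 and 6.14 CPM with STM2457 and siRNA, above the 3 siRNA libraries in DMSO, a change of 0.31 (SE 0.09, edgeR adjusted p = 0.0107). Without the first siRNA library in DMSO it was 0.24 (edgeR adjusted p = 0.07), and without the second siRNA library in STM2457 0.26 (edgeR adjusted p = 0.0565). SOX9 stood at 8.91, 8.11 and 8.48 CPM, a change of 0.33 (SE 0.08, edgeR adjusted p = 0.00306). SOX13 changed by -0.05 (edgeR adjusted p = 0.599) and SOX3 by 0.33 (edgeR adjusted p = 0.473). Of the 6 tested members, 3 were higher and 1 lower, where 30.9% of all genes were called, 15.5% higher and 15.4% lower. The counts were 707 higher and 4245 lower with ribosomal protein scaling, and with spike-ins 138 and 2381. The members' median was 0.32 beside 0.00 for all genes.

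Whether the STM2457 effect depends on YTHDF2 was read from the difference of the 2 effects, with minus without siRNA. SOX12 differed by -0.53 (SE 0.10, edgeR adjusted p = 0.00142) and SOX4 by -0.35 (SE 0.09, edgeR adjusted p = 0.0176), where 8.7% of all genes tested were called, 1.78% with a higher and 6.93% with a lower difference. For SOX12 the effect was 0.09 without siRNA, which was not called, and -0.44 with it. For SOX4 the inhibitor's effect was smaller with siRNA, and the 2 STM2457 groups ended at 134 ± 12.6 and 125 ± 5.24 CPM from DMSO levels of 71.0 ± 1.83 and 84.2 ± 4.34 CPM (SD, n = 3 each). SOX2 (-0.20, interval from -0.43 to 0.02), SOX9 (-0.14, from -0.35 to 0.06), SOX13 (0.13, from -0.05 to 0.31) and SOX3 (0.31, from -0.48 to 1.11) did not pass the test.

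Both calls depended on the scaling, and that of SOX4 also on single libraries. The SOX4 call was lost without DMSO replicate 1 or 2, STM2457 replicate 1, replicate 1 or 2 of the siRNA in DMSO, or replicate 2 or 3 of the siRNA in STM2457, with differences from -0.33 to -0.27 and edgeR adjusted p from 0.056 to 0.0838. The SOX12 call remained in each of these fits. With ribosomal protein scaling the differences were -0.29 for SOX4 (SE 0.17, edgeR adjusted p = 0.583) and -0.47 for SOX12 (SE 0.18, edgeR adjusted p = 0.334). With spike-in scaling they were -0.31 and -0.50 (SE 0.27 for each). Neither was called under either scaling, at larger SEs than with TMM. Of all genes, 9 were then called higher and 127 lower with ribosomal protein scaling and 0 with spike-ins. SOX12 without siRNA came to -0.15 and -0.25 under these scalings, neither called (edgeR adjusted p = 0.325 and 0.302). Its estimates with and without siRNA were then both below 0.

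**Figure D3:**
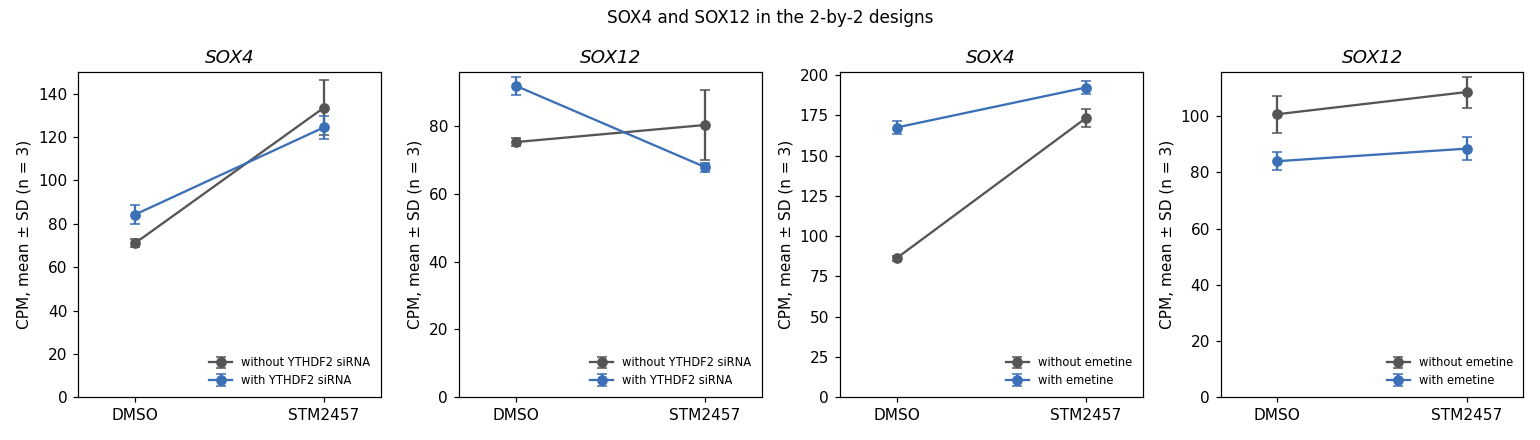
Mean level of SOX4 and SOX12 in CPM (linear axes from 0, bars SD, n = 3) in DMSO and STM2457, without (grey) and with (blue) YTHDF2 siRNA in the left pair of panels and emetine in the right pair. The SOX12 lines cross in the siRNA design, and in the emetine design the SOX4 line is steep without emetine (86.3 to 173 CPM) and shallow with it (167 to 192 CPM).

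The emetine experiment asked whether the effect of the inhibitor depends on translation. Emetine alone raised SOX4 by 1.94-fold and SOX13 by 1.39-fold in 2 h, and SOX12 was 0.834 of its level without emetine. With emetine present, STM2457 still raised SOX2 by 1.67-fold and SOX9 by 1.3-fold, while its effect on SOX4 was reduced to 1.15-fold.

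SOX4 stood at 166, 164 and 172 CPM with emetine in DMSO, against 85.3 to 88.2 CPM without it (log2 change 0.96, SE 0.04, edgeR adjusted p = 2.14e-21). These 3 libraries lay in the range of the STM2457 libraries without emetine, 167 to 177 CPM, or just below it. SOX13 stood at 31.9, 31.1 and 30.5 CPM with emetine and at 23.7, 22.5 and 21.0 CPM without it. The groups were clearly apart (0.47, SE 0.06, edgeR adjusted p = 4.38e-09), and this was the largest SOX13 change among the 7 comparisons between 2 groups.

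SOX12 stood at 87.2, 80.9 and 83.8 CPM with emetine, below the 94.7 to 108 CPM of the libraries without it, a change of -0.26 (SE 0.05, edgeR adjusted p = 5.99e-06). This direction rests on the scaling. The median of all genes moved by 0.44 with ribosomal protein scaling and by 0.49 with spike-in scaling, and SOX12 then came to 0.17 (edgeR adjusted p = 0.0151) and 0.22 (edgeR adjusted p = 0.00796), in both cases less than the median of all genes, 0.47 and 0.52. SOX4 came to 1.39 and 1.44 under these scalings and SOX13 to 0.91 and 0.96.

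SOX9 stood at 18.4, 18.9 and 19.3 CPM with emetine, above the 15.7 to 17.4 CPM without it, by 0.17 (SE 0.07, edgeR adjusted p = 0.0278). That call was lost under DESeq2 (0.15, adjusted p = 0.127) and without any of the 3 DMSO libraries (edgeR adjusted p = 0.0727, 0.0616 and 0.244) or emetine replicate 2 or 3 (0.0598 and 0.0873). The value was 0.60 with ribosomal protein scaling (edgeR adjusted p = 5.53e-08) and with spike-ins 0.65 (edgeR adjusted p = 1.38e-10). SOX2 stood at 8.41, 8.72 and 8.62 CPM with emetine, a change of 0.14 (edgeR adjusted p = 0.17), which became 0.58 and 0.62 under ribosomal protein and spike-in scaling and was then called. SOX3 changed by -0.08 (interval from -0.74 to 0.57). Of the 6 tested members 3 were higher and 1 lower, where 62.2% of all genes were called, 33.9% higher and 28.3% lower. The other scalings gave 11455 genes higher and 408 lower (ribosomal protein) and 11558 and 227 (spike-ins).

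Within emetine, SOX2 stood at 13.9, 15.1 and 14.1 CPM with STM2457, above the 8.41 to 8.72 CPM in DMSO. This change of 0.74 (SE 0.08, edgeR adjusted p = 2.54e-09) lay at the 98th percentile of all genes tested. SOX9 stood at 24.3, 24.6 and 24.8 CPM, above the 18.4 to 19.3 CPM in DMSO, by 0.38 (SE 0.06, edgeR adjusted p = 7.4e-06). SOX4 stood at 196, 188 and 192 CPM, above its DMSO libraries, by 0.20 (SE 0.03, edgeR adjusted p = 1.26e-05). With ribosomal protein and spike-in scaling the SOX4 change was 0.09 and 0.11 and was not called (edgeR adjusted p = 0.122 and 0.326).

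SOX3 stood at 0.399, 0.395 and 0.223 CPM with STM2457 and emetine, below the 0.495, 1.16 and 0.606 CPM with emetine in DMSO. Its change of -1.12 (SE 0.40, edgeR adjusted p = 0.0272) was lost under DESeq2 (adjusted p = 0.0739), without the second emetine library in DMSO (-0.68, edgeR adjusted p = 0.273) and without the third in STM2457 (-0.91, edgeR adjusted p = 0.117). SOX12 and SOX13 changed by 0.08 and 0.05 (edgeR adjusted p = 0.215 and 0.488). Of the 6 tested members 3 were higher and 1 lower, where 37.8% of all genes were called, 21.6% higher and 16.2% lower. Scaled to ribosomal protein genes, 1660 were higher and 4364 lower, and with spike-ins 1351 and 2581.

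The difference of the STM2457 effects, with minus without emetine, was -0.81 for SOX4 (SE 0.05, edgeR adjusted p = 8.07e-14), at the 2.39th percentile of all genes tested. It was the 1 member called, where 17.8% of all genes were, 6.71% with a higher and 11.1% with a lower difference. It remained called without each library in turn and under both other scalings, where 1343 genes had a higher and 936 a lower difference (ribosomal protein) or 227 and 478 (spike-ins). For SOX2 the difference was 0.13 (interval from -0.10 to 0.36), for SOX9 -0.11 (from -0.29 to 0.06), for SOX12 -0.03 (from -0.16 to 0.09), for SOX13 0.02 (from -0.14 to 0.17) and for SOX3 -0.88 (from -1.94 to 0.18), and none of these passed the test. In bulk libraries, more mRNA per cell and more cells holding it cannot be told apart, nor can synthesis and decay.

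SOX2 and SOX9 followed each other over the groups. After centring log2(CPM + 0.5) within each experiment, Pearson's r between them was 0.939 over the 32 libraries, which share their treatments and scaling factors. It was 0.973 within the 12 libraries of the knockdown experiment, 0.956 within the 12 of the emetine experiment and 0.217 within the 8 of the 9 h experiment. Without the siRNA libraries it was 0.897 over 26 libraries. The deviations of each library from its own group mean had an r of 0.018, so the likeness lies in the group means. The other pairs of the 6 measured members had r from -0.478 (SOX3 and SOX13) to 0.493 (SOX2 and SOX4) over the 32 libraries. Without the siRNA libraries SOX2 and SOX4 had an r of 0.806, and SOX4 and SOX9 0.732. For SOX2 and SOX4 it was 0.277 within the knockdown, 0.940 within the 9 h and 0.755 within the emetine experiment. For SOX4 and SOX9 it was 0.338, 0.193 and 0.811 in the same order. SOX4 thus also moved with SOX2 and SOX9 over the groups without siRNA, though not with SOX9 at 9 h.

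**Figure D4:**
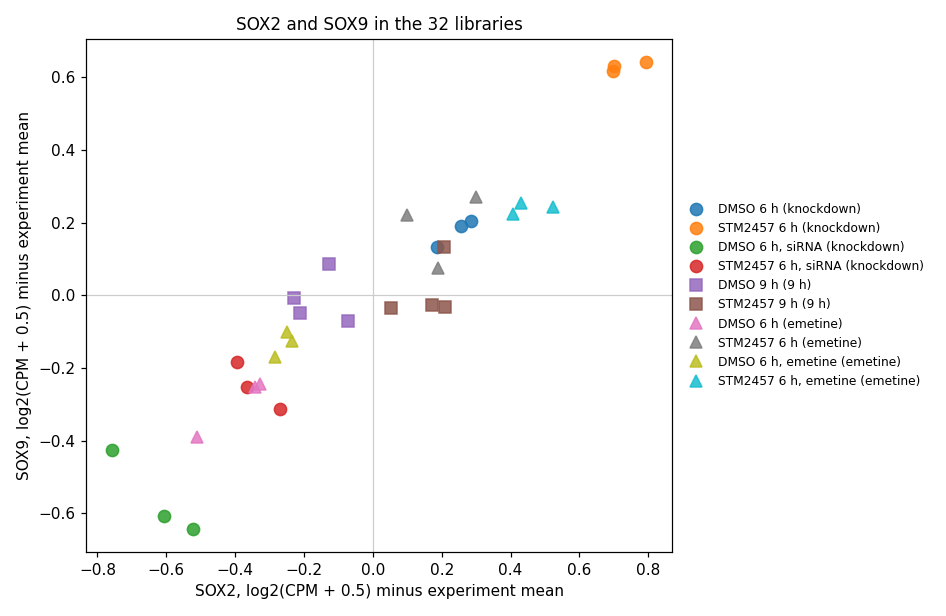
SOX9 against SOX2 in the 32 libraries, each as log2(CPM + 0.5) minus the mean of its experiment, with a colour for each group and a marker for each experiment. The libraries run from the siRNA group in DMSO at the lower left to the STM2457 6 h group of the knockdown experiment at the upper right (r = 0.939), while the squares of the 9 h experiment spread along SOX2 more than along SOX9.

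The genes most like each member over the 32 libraries were found in the same way among 11373 genes that were tested in all 3 experiments and averaged 2 or more on the log2 CPM scale. For SOX4 they were ZNF48 (r = 0.977), ARID5A (0.974) and TOPORS (0.973). For SOX12 they were AGAP2-AS1 (0.901), NUDT10 (0.888) and TNKS1BP1 (0.883). SOX2 was most like SIMC1 (0.964), BICRAL (0.959) and AHCTF1 (0.957), SOX9 most like TGS1 (0.967), CKAP2 (0.964) and YTHDF3 (0.959), and SOX13 most like OGDHL (0.945), PLXNA3 (0.940) and FHIP2B (0.940). SOX3 had no close match at its depth, the highest being SLC25A4 at 0.652.

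Of the 12 other SOX genes listed, 6 were tested in the knockdown and 9 h experiments and 7 in the emetine experiment. STM2457 at 6 h raised 4 of 6 and lowered 0 in the knockdown experiment, where 22.9% of all genes were higher and 22.1% lower. These were SOX7 (4.20 to 8.19 CPM, log2 change 0.97, edgeR adjusted p = 2.93e-07), SOX18 (2.11 to 4.67 CPM, 1.14), both SOXF genes of blood vessel cells, SOX8 (7.73 to 11.5 CPM, 0.57), a SOXE gene like SOX9, and SOX21 (2.83 to 3.64 CPM, 0.36), a SOXB2 gene. SOX7, SOX8, SOX18 and SOX21 were also called higher in the emetine experiment and at 9 h, by 0.33 to 0.95, against 26% and 32.2% of all genes. SOX6, a SOXD gene like SOX13, was lower in both, by -0.35 and -0.21. With YTHDF2 siRNA, SOX5, the remaining SOXD gene, fell from 3.71 to 0.972 CPM (-1.93, edgeR adjusted p = 1.51e-09), SOX21 was also lower (-0.30) and SOX8 higher (0.25), 3 of 6 called where 62.4% of all genes were. Emetine alone raised SOX7 (0.54) and SOX30 (1.02) and lowered SOX21 (-0.43), 3 of 7 called where 62.2% of all genes were. The STM2457 effect on SOX7 was smaller with emetine than without it (-0.47, edgeR adjusted p = 0.0159). Under ribosomal protein and spike-in scaling SOX7 (0.70 and 0.60) and SOX18 (0.88 and 0.77) remained called in the knockdown experiment. SOX8 (0.32 and 0.22) and SOX21 (0.098 and -0.0052) did not. In the emetine experiment SOX21 lost its call under both scalings, and at 9 h SOX6 came to -0.040 with ribosomal protein scaling and was not called. With YTHDF2 siRNA only SOX5 of the 3 remained called under both. With emetine SOX21 turned to 0.0037 and 0.054, neither called, and the SOX7 difference (-0.40 and -0.42) lost its call under both.

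Of 17 partner factors of SOX proteins, 14 were tested in each experiment. STM2457 at 6 h raised 4 and lowered 2 in the knockdown experiment and raised 5 and lowered 1 in the emetine experiment, and at 9 h it raised 9 and lowered 3. The 6 of 14 called at 6 h are near the 45% and 47.8% of all genes, and the 12 of 14 at 9 h stand beside 64.7%. POU3F1, POU3F2, CHD7 and EP300 were higher in all 3, POU3F2, a POU factor of neural cells that pairs with SOX2, by 0.56, 0.55 and 0.82 and EP300, a histone acetyltransferase, by 0.48, 0.65 and 0.56. With YTHDF2 siRNA 2 were higher and 3 lower, beside 62.4% of all genes called, PAX6, an eye and brain factor that binds beside SOX2, going from 27.3 to 10.1 CPM (-1.43, edgeR adjusted p = 7.57e-12) and POU3F2 from 30.8 to 19.9 CPM (-0.63, edgeR adjusted p = 1.04e-06). With emetine PAX6 went from 25.9 to 39.2 CPM (0.60, edgeR adjusted p = 4.95e-12). Of the 6 partner factors called at 6 h in the knockdown experiment, 3 remained called under each of the other scalings and none turned in sign. POU3F1 was among the 3, while POU3F2 (0.31 and 0.22), CHD7 (0.15 and 0.053) and EP300 (0.23 and 0.12) were not. All 4 remained called in the emetine experiment and at 9 h.

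Of 19 genes described as targets of SOX proteins elsewhere, 10 or 11 were tested. STM2457 at 6 h raised 1 and lowered 5 of 11 in the knockdown experiment and lowered 5 of 10 and raised 0 in the emetine experiment, and at 9 h it lowered 3 of 10 and raised 0. Of all genes 45%, 47.8% and 64.7% were called in these comparisons, 22.1%, 21.9% and 32.5% lower. NES, an intermediate filament gene bound by SOX2, was lower in all 3, from 6.95 to 4.01 CPM (-0.79, edgeR adjusted p = 2.72e-06) in the first. COL2A1, the cartilage collagen activated by SOX9, went from 84.0 to 65.2 CPM (-0.37, edgeR adjusted p = 0.000639) in the knockdown experiment and from 109 to 99.3 CPM (-0.13, edgeR adjusted p = 0.0103) in the emetine experiment, in libraries where SOX9 mRNA was higher. With YTHDF2 siRNA 3 of 11 were higher and 2 lower, where 62.4% of all genes were called, NES rising from 6.95 to 10.3 CPM (0.57) and COL2A1 falling from 84.0 to 46.8 CPM (-0.84). All 5 genes called in the emetine experiment, the 3 called at 9 h and the 5 called with the siRNA remained called, with the same sign, under each scaling that could be fitted, as did 5 of 6 in the knockdown experiment, NES and COL2A1 among them. SOX protein was not measured.

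Of 15 genes for turnover, modification and transport of SOX proteins, all were tested. STM2457 raised 3 and lowered 6 in the knockdown experiment, 3 and 8 in the emetine experiment and 3 and 8 at 9 h, where 45%, 47.8% and 64.7% of all genes were called. OTUD7B, a deubiquitinase, was higher in each (0.71, 0.82 and 0.40). Among 21 other HMG-box genes, STM2457 for 6 h raised 3 and lowered 3 of the 20 tested in the knockdown experiment, 3 and 2 of 19 in the emetine experiment and, after 9 h, 5 and 9 of 20, against the same shares of all genes. The medians of that list were -0.08, 0.04 and -0.09. Directions in these last lists rest in part on the scaling. With ribosomal protein scaling the sign turned for 1 of 9, 1 of 11 and 1 of 11 called turnover genes in the 3 comparisons, and for 3 of 6, 2 of 5 and 3 of 14 called HMG-box genes. OTUD7B kept its sign in the 3 comparisons under each scaling that could be fitted, and lost its call in the knockdown experiment with spike-ins (0.35, edgeR adjusted p = 0.145).

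Scaling changed how many of the members were called. With ribosomal protein and spike-in scaling the median of all genes moved by -0.26 and -0.37 after STM2457 in the knockdown experiment and by -0.17 and -0.13 in the emetine experiment, and with ribosomal protein scaling by 0.17 at 9 h. In the knockdown experiment SOX4 then remained called at 0.66 and 0.55, while SOX2 (0.25 and 0.15) and SOX9 (0.21 and 0.11) kept their sign and were not called. In the emetine experiment SOX2 came to 0.44 and 0.48 and SOX9 to 0.32 and 0.36, and both remained called. At 9 h with ribosomal protein scaling SOX2 came to 0.51, and SOX9 came to 0.20 and was called (edgeR adjusted p = 0.00752). In siRNA cells, SOX2 (0.12 and 0.0034) and SOX9 (0.14 and 0.0055) lost their calls under both scalings, and SOX4 under spike-ins (0.24, edgeR adjusted p = 0.344).

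**Figure D5:**
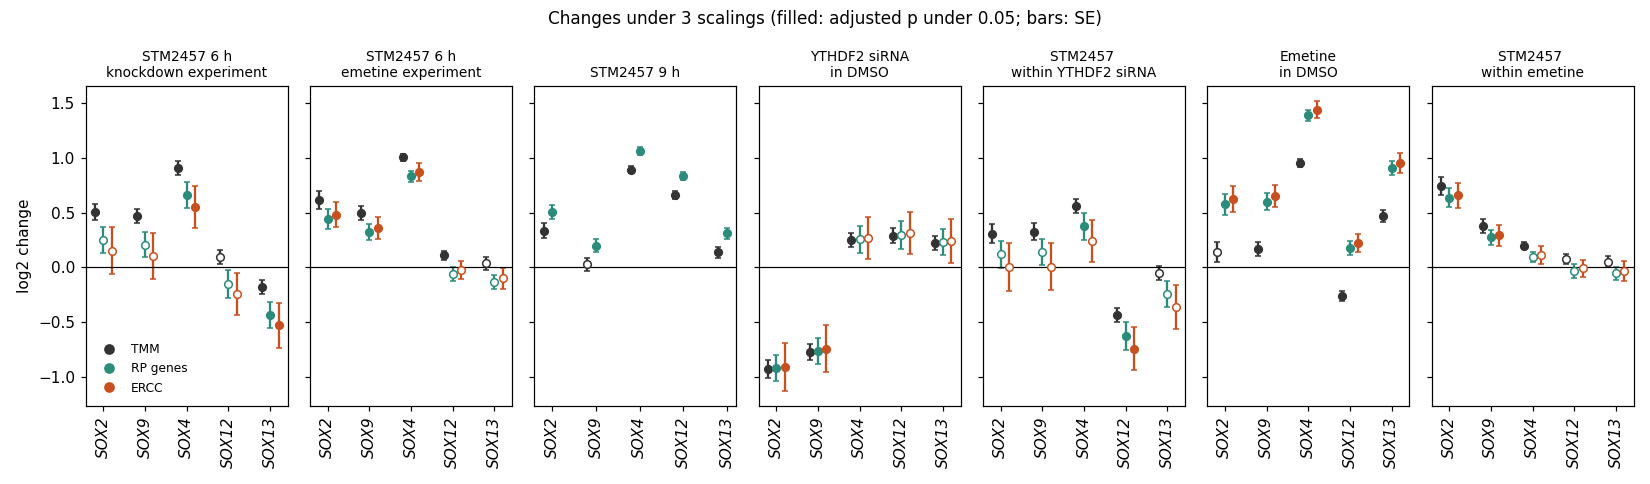
Log2 change of 5 SOX mRNAs with its SE in 7 comparisons under TMM scaling (black), scaling to ribosomal protein genes (green) and scaling to ERCC spike-ins (orange, not possible at 9 h), filled where the adjusted p was under 0.05. The SOX4 rise with STM2457 at 6 h without siRNA or emetine was called under each scaling, but within siRNA it lost its call with spike-ins and within emetine with both, and SOX12 changed sign with emetine.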

How the data were processed

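Poly(A) RNA libraries were strand-specific, per the labels. The submitters' processing notes name STAR 2.7.3a, Subread 2.0.0 and featureCounts, SAMtools 1.9, cutadapt 1.18 and 4.0, FastQC 0.11.8 and Trimmomatic, with the build GRCh38.p12. The authors deposited read counts per gene for each library, and these counts were used as deposited; 60261 of 60662 identifiers matched a symbol and 58587 are in GENCODE 29. Depth ranged from 21781514 to 42303951 gene counts. Among the tested members precision is lowest for SOX3, which had 5 to 35 counts per library.

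Each experiment was fitted on its own with edgeR 4.0.16 (quasi-likelihood test, TMM scaling, filterByExpr with a minimum count of 10, Benjamini-Hochberg adjustment over all genes tested, threshold 0.05), all its groups sharing 1 estimate of the spread; the 9 h and 6 h effects were compared in 1 fit of 20 libraries without siRNA or emetine. CPM are on the TMM scale, and intervals are the estimate ± 1.96 SE. The fit was tested on simulated data: of genes changed by 1 on the log2 scale it recovered 88.2% (6 h, knockdown experiment), 97% (9 h) and 90.6% (6 h, emetine experiment), and of genes changed by 0.5 it recovered 65.5%, 76.5% and 78.4%. Few genes were changed, up or down at random (for the knockdown experiment, 110 by 1 and 87 by 0.5 of 16375). Most genes thus did not change, as TMM assumes, so the simulation cannot tell how the fit does where the scaling decides a call. Alternatives were DESeq2 1.42.0, RLE factors, no filter, scaling to 88 ribosomal protein genes or 92 ERCC spike-ins (in 24 libraries), the replicate number as a block, and leaving out each library. The members and lists were chosen with earlier results of these data known. Named were all members, METTL3, YTHDF2 as the check of the siRNA, up to 4 genes of each list by smallest p, and the 3 genes most like each member; the other genes named from the lists were chosen after their values were seen. Identity between SOX proteins is not analysed here.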

Additional observations from a re-analysis of the deposited data

Results flagged for a closer look

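In the 9 h experiment, 12 sets of 4 libraries were searched for a library far from the others, and 2 were found. Chance alone gives about 1 in 20 sets, and the sets share libraries, so the 2 cannot be read as an excess. The highest SOX9 level with STM2457, 18.9 CPM, was apart from the other 3 libraries, all at 16.8 CPM. The lowest SOX12 level in DMSO, 98.0 CPM, was apart from the other 3, all near 102 CPM.

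The effect of STM2457 differed between conditions for several members by edgeR's test of the difference itself. With minus without YTHDF2 siRNA, the difference was -0.35 on the log2 scale for SOX4 (adjusted p = 0.0176), whose rise was smaller with siRNA, and -0.53 for SOX12 (adjusted p = 0.00142), which fell with siRNA and was not called without it. Neither difference was called with ribosomal protein or spike-in scaling. It was smaller with emetine for SOX4, by -0.81 (adjusted p = 8.07e-14). Between 9 h and 6 h, the difference was -0.48 for SOX9 (adjusted p = 0.000111), 0.53 for SOX12 (adjusted p = 1.07e-05) and 0.28 for SOX13 (adjusted p = 0.00693), and here the time and the experiment cannot be told apart. With ribosomal protein scaling the SOX9 difference came to -0.0099 and was not called, while those of SOX12 (0.99) and SOX13 (0.75) remained called.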

How the results depend on the processing

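Of 60 member values with a test, 36 were called. Over the settings other than leaving out libraries, 292 of 346 values kept their direction and side of the threshold, and over the fits without 1 library 448 of 492 did. Of the values that changed sign, 4 had been called.

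With ribosomal protein scaling, the called members numbered 2 for STM2457 at 6 h (knockdown), 3 for YTHDF2 siRNA, 2 for STM2457 within siRNA and 0 for the siRNA difference, and the called genes 136 for the siRNA difference (1450 with TMM, edgeR) and 10070 for 9 h minus 6 h (6202). With spike-ins, members numbered 2, 2, 1 and 0 in the same order, and genes 4882 for siRNA (10403), 2519 for STM2457 within siRNA (5146), 0 for its difference, 3932 for STM2457 within emetine (5972) and 705 for the emetine difference (2810). The sign changed with ribosomal protein and spike-in scaling for SOX3 (-0.28 and -0.41) and SOX12 (-0.15 and -0.25) at 6 h in the knockdown experiment, for SOX12 (-0.064 and -0.026) and SOX13 (-0.14 and -0.10) at 6 h in the emetine experiment, for SOX3 (0.35 and 0.39) and SOX12 (0.17 and 0.22) with emetine, for SOX12 (-0.031 and -0.011) and SOX13 (-0.055 and -0.033) with STM2457 within emetine, for SOX12 (0.033 and 0.015) in the emetine difference, and with the former for SOX2 (0.26) and SOX4 (0.40) in 9 h minus 6 h. Without the filter, SOX13 came to -0.00032 in the emetine difference. The cause was not tested. Spike-in scaling was not run at 9 h, where no spike-in counts were used.

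Replicate numbers showed no clear pairing of the libraries. Deviations of same-numbered libraries correlated from -0.165 to 0.297 in the knockdown, -0.028 to 0.087 in the 9 h and -0.089 to 0.125 in the emetine experiment. Libraries with different numbers gave -0.308 to 0.240, -0.128 to 0.102 and -0.125 to 0.148. These overlapping ranges do not settle whether libraries are paired. A replicate block moved SOX3 to -0.0030 at 6 h in the knockdown experiment, changed no member's call, and gave 7635 called genes there (7491 without it).

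Without 1 library at a time, the siRNA difference gave 879 to 2196 genes and 1 to 2 members. The sign was not fixed for SOX3 (-0.41 to 0.18) and SOX12 (-0.011 to 0.18) at 6 h in the knockdown experiment, SOX13 (-0.029 to 0.049) at 6 h in the emetine experiment, SOX9 (-0.023 to 0.059) at 9 h, SOX3 (-0.53 to 0.14) with emetine, SOX12 (-0.072 to 0.015) and SOX13 (-0.013 to 0.065) in the emetine difference, and SOX3 (-0.021 to 0.63) and SOX4 (-0.11 to 0.0081) in 9 h minus 6 h. Low counts limit SOX3, at 5 to 35 per library, and SOX11.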
